A study of Mus musculus with 10 samples.

Results

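The mouse guanylate-binding proteins are a family of large GTPases, and 8 of the genes that encode them were followed here: Gbp5, Gbp7, Gbp3, Gbp2b and Gbp2 on chromosome 3, and Gbp8, Gbp9 and Gbp4 on chromosome 5. They are 8 of the 53379 genes counted in this series, and all 8 were among the 14528 genes that passed the filter on low counts. The list was chosen by the KO and WT values at the label CD11b. In that contrast Gbp2b, Gbp3 and Gbp2 were known to be low in Atg16l1 knockout. Other genes of the family were listed with them, but not Gbp6, Gbp10 and Gbp11. Because of this choice, the values of the KO and WT contrast at the label CD11b are given as a description, without a test.

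RNA sequencing was done on dendritic cells from spleens of individual C57BL/6 mice aged 16 weeks. Sorting took cells with much MHC class II and CD11c that were positive for CD11b and negative for CD8, or the reverse. The 10 libraries fell into the groups CD11b KO (Atg16l1 -/-, n = 2), CD11b WT (Atg16l1 +/+, n = 3), CD8 KO (Atg16l1 -/-, n = 2) and CD8 WT (Atg16l1 +/+, n = 3). The series title places the work in a mouse model of atherogenesis, but the sample labels record no further allele, no diet and no driver of a conditional deletion, so it is not known from them whether Atg16l1 was lost in all cells or in some.

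Guanylate-binding proteins are induced by interferon-gamma. They collect on the vacuoles that hold Toxoplasma and on bacteria in the cytosol, and they assist inflammasome activation by bacterial products. In mouse cells their delivery to Toxoplasma vacuoles depends on the machinery that attaches LC3 to membranes, of which Atg16l1 is a part. Dendritic cells of the spleen fall into a cross-presenting type marked by Xcr1, Clec9a and Cd8a (cDC1) and a type marked by Itgam, which encodes CD11b, and Sirpa (cDC2).

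The libraries held 9467704 to 13768884 gene counts each. A difference was called where edgeR's p, adjusted by Benjamini-Hochberg over all genes tested, was under 0.05. Levels are given as CPM, a gene's share of the gene counts of its library, scaled by TMM factors, with the SD over the libraries of a group. Atg16l1 itself was at 1.73 to 3.31 CPM in the 4 KO libraries, against 13.3 to 32.7 CPM in the 6 WT libraries, so the genotype labels and this gene went together. The subset labels did not go with their markers in any of the 10 libraries. With the label CD11b, Xcr1 had 290.0 to 442 CPM and with the label CD8 it had 7.14 to 11.3 CPM. Clec9a had 541 to 667 CPM with the label CD11b against 25.5 to 40.8 CPM with the label CD8, and Cd8a had 448 to 578 CPM against 0.905 to 5.87 CPM. Itgam had 1.58 to 2.73 CPM with the label CD11b but 76.1 to 104 CPM with the label CD8, and Sirpa had 23.9 to 29.2 CPM against 553 to 629 CPM. The libraries labelled CD11b thus carried the cDC1 markers and those labelled CD8 the cDC2 markers. The labels are kept as given, and any statement on a subset is one on libraries of that label.

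Positions are those of GENCODE M21 on GRCm38. The chromosome 3 genes lie on the plus strand within 144 kb (chr3:142493978-142638008). In genome order these are Gbp5 (chr3:142493978-142522344), Gbp7 (chr3:142530342-142550149), Gbp3 (chr3:142560026-142573209), Gbp2b (chr3:142594847-142619179) and Gbp2 (chr3:142620602-142638008). The genes low in CD11b KO are the last 3 of this row, next to each other, and Gbp5 and Gbp7 lie upstream of them. Gbp8 (chr5:105014150-105139540), Gbp9 (chr5:105077630-105139539) and Gbp4 (chr5:105115767-105139586) lie on the minus strand of chromosome 5 and overlap, with starts within 47 bases of each other.

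RefSeq promoter windows on GRCm38.p6, from 250 bases before to 50 bases after a start, were at hand for 5 of the 8 members, all on chromosome 3. Each was searched on both strands, with overlaps allowed, for the core of the interferon-stimulated response element (ISRE), spelled GAAA, any 2 bases, GAAA and read as TTTC, any 2 bases, TTTC on the other strand, and for the interferon-gamma activated site (GAS), spelled TTCNNNGAA. The ISRE core occurred in 3.44% and the GAS in 8.30% of all 32851 windows of 300 bases in the table, and both occurred together in 0.454%. Sequence before the RefSeq start of each of the 5 genes is printed because genes that were low in KO and genes that were not lie side by side here and share a type of motif. For Gbp5 and Gbp2 the RefSeq starts (142496934 and 142620663) lie inside the GENCODE genes given above, so the whole Gbp5 stretch is within that gene's GENCODE span and the last 12 bases of the Gbp2 stretch are in a GENCODE exon. Each is on the plus strand, 5′ to 3′, and capitals mark the motif matches.
Gbp2b, chr3:142594597-142594846: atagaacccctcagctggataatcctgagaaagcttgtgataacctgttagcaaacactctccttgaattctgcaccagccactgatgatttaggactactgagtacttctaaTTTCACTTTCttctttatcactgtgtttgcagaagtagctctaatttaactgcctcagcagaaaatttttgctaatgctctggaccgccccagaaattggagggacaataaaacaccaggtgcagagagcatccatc
Gbp3, chr3:142559794-142560025: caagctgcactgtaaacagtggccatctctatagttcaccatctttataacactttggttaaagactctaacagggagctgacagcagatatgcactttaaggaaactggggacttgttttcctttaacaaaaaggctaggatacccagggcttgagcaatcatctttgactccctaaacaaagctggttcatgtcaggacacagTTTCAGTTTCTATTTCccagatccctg
Gbp2, chr3:142620413-142620613: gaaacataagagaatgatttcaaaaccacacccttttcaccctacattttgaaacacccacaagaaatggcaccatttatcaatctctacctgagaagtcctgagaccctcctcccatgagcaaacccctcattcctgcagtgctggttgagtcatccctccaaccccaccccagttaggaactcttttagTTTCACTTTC
Gbp7, chr3:142530086-142530335: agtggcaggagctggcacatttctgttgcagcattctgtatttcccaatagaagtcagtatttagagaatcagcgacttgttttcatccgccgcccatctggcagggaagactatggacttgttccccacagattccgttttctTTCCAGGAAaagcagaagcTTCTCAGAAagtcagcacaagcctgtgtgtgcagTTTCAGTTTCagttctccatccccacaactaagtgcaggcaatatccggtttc
Gbp5, chr3:142496684-142496899: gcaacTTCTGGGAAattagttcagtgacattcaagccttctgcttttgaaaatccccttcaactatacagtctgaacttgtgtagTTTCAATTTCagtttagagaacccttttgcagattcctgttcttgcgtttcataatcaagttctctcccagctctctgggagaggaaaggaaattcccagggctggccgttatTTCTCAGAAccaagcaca
The ISRE core was present before the RefSeq start of all 5 genes, always in the TTTC reading, and for Gbp2 it lay in those 12 exon bases. It ended 128 bases before the start of Gbp2b, 50 bases before that of Gbp2, 44 bases before that of Gbp7 and 156 bases before that of Gbp5. Gbp3 had 2 overlapping copies, which ended 36 and 30 bases before its start. Matches to the GAS were found for Gbp7, ending 98 and 79 bases before the start, and for Gbp5, ending 237 and 44 bases before it. The windows of Gbp2b, Gbp3 and Gbp2 held no match to it, which says only that these letters are not in the windows. A second RefSeq start of Gbp3 had a window with neither motif. The matches are a description of the sequence, and no binding was measured.

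The KO and WT values at the label CD11b, which led to the choice of the genes, differed most at Gbp2b. Gbp2b, also known as Gbp1, encodes a protein that binds Toxoplasma vacuoles. It had 5.25 and 2.42 CPM in CD11b KO (52 and 29 counts), against 105, 193 and 176 CPM in CD11b WT (1379, 2562 and 1889 counts). Every KO library was far below every WT library. The log2 fold change was −5.39 ± 0.37 (SE), 41.9-fold lower in KO. Over the fits with libraries left out it lay between −6.02 (without CD11b KO 1) and −4.91.

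Gbp3 belongs to the chromosome 3 genes whose joint deletion leaves mice susceptible to Toxoplasma. It had 6.36 and 9.92 CPM in CD11b KO, against 74.5, 108 and 101 CPM in CD11b WT. The log2 fold change was −3.52 ± 0.25. Gbp2, which in mice restricts Toxoplasma and is anchored to membranes by a lipid at its C terminus, had 9.08 and 12.7 CPM in CD11b KO, against 69.9, 92.8 and 91.4 CPM in CD11b WT. Its log2 fold change was −2.95 ± 0.23. For both genes the groups were far apart, and both kept 63 or more counts in each KO library, so their transcripts were reduced and not absent.

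The other 5 members had smaller differences between the same libraries. Gbp5, which promotes assembly of the NLRP3 inflammasome in mouse macrophages, had 19.8 and 19.2 CPM in CD11b KO, against 23.4, 40.7 and 20.4 CPM in CD11b WT. The KO values lay just below the lowest WT value, and CD11b WT 2 stood above the other libraries of its group. The log2 fold change was −0.53 ± 0.25. Gbp7, which acts in the control of Toxoplasma in mice, was low at this label in both genotypes, with 1.72 and 1.17 CPM in CD11b KO and 1.52, 1.74 and 2.60 CPM in CD11b WT, and these groups overlapped. On chromosome 5, Gbp9 had 49.5 and 43.0 CPM in CD11b KO against 51.0, 59.6 and 51.2 CPM in CD11b WT. Gbp8 had 14.3 and 12.7 CPM in CD11b KO, against 11.3, 10.4 and 11.8 CPM in CD11b WT. Gbp4 had 30.5 and 20.9 CPM in CD11b KO and 28.2, 35.6 and 22.2 CPM in CD11b WT. Gbp9 was below its WT range, Gbp8 above it, and Gbp4 overlapped. The log2 fold changes of these 4 lay between −0.44 ± 0.39 for Gbp7 and 0.27 ± 0.21 for Gbp8. At the label CD8, with groups of the same sizes, 24.0% of all genes tested did not overlap. Nothing is therefore read from the gaps of Gbp5, Gbp9 and Gbp8. Of the 8 members 3 were called lower, beside 0.0895% of all genes tested, and nothing is read from that count, since the same contrast led to the choice.

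**Figure D1:**
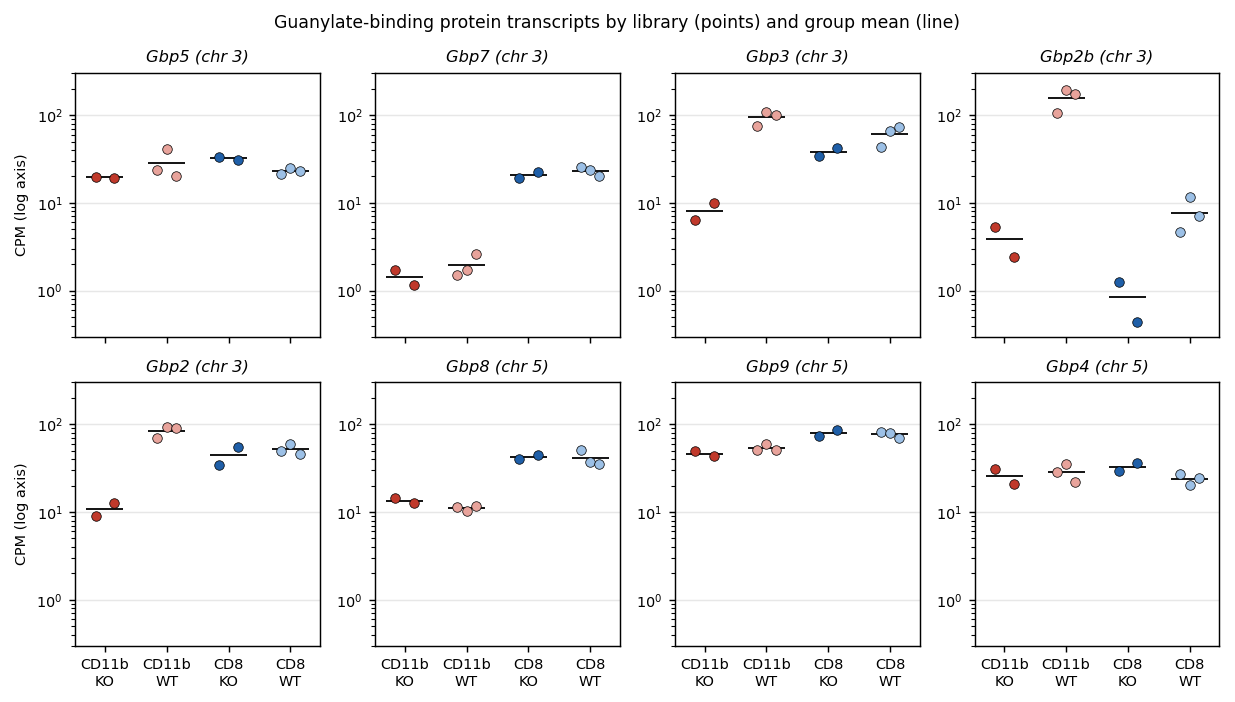
Level of each of the 8 genes in each of the 10 libraries, on a log axis of TMM-scaled CPM, with KO left of WT within each subset label; points are libraries and lines are group means. Gbp2b, Gbp3 and Gbp2 are far below WT in the CD11b KO libraries, Gbp2b is also below WT in CD8 KO, and Gbp7 and Gbp8 are low at the label CD11b in both genotypes.

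Summed over the 8 genes, the level was 129 ± 10.2 CPM in CD11b KO (SD, n = 2) and 461 ± 89.6 CPM in CD11b WT (SD, n = 3). It was 292 ± 37.8 CPM in CD8 KO (n = 2) and 308 ± 12.6 CPM in CD8 WT (n = 3). The 3 chromosome 5 genes together had 85.5 ± 12.6 CPM in CD11b KO and 93.8 ± 10.5 CPM in CD11b WT, and their ranges overlapped. The difference in the sum at the label CD11b therefore lay in the chromosome 3 genes, and within these in Gbp2b, Gbp3 and Gbp2, which together had 22.9 ± 3.11 CPM in CD11b KO and 337 ± 77.1 CPM in CD11b WT. In bulk samples such as these, fewer cells of a type that expresses a gene cannot be told apart from less RNA per cell.

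The libraries labelled CD8 did not enter the choice of the genes, although the difference of Gbp2b in them was already known. There Gbp2b had 1.24 and 0.435 CPM in CD8 KO (15 and 5 counts), against 4.64, 11.6 and 7.00 CPM in CD8 WT (43, 128 and 74 counts). Both KO libraries were below every WT library, at low counts. The log2 fold change was −3.19 ± 0.48, 9.13-fold lower in KO (edgeR adjusted p = 0.00205). The call was lost with limma-voom, at nearly the same log2 fold change with a larger SE (−3.21 ± 1.23, limma adjusted p = 0.41), and without CD8 KO 2 (log2 fold change −2.65, edgeR adjusted p = 0.108), and the log2 fold change was −4.13 without CD8 KO 1. Over 19 alternative settings the adjusted p lay between 3.27e-25 (edgeR with no filter on low counts) and 0.41 (limma-voom). The fit with no filter called 142 genes in all at this label, against 21 in the main fit. Whether the genotype difference of a gene differed between the labels was not tested.

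Gbp2b was the 1 member of 8 that was called in this comparison, beside 0.0826% of all genes tested called lower in KO. Nothing is read from that count, since the difference of Gbp2b was known when the list was made. Gbp3 had 33.8 and 41.7 CPM in CD8 KO, against 43.7, 65.1 and 72.6 CPM in CD8 WT. The KO values were below the WT range by a small gap, and the difference did not pass (log2 fold change −0.68 ± 0.21, edgeR adjusted p = 0.365), though it did when genes with low counts were not filtered out (edgeR adjusted p = 0.0138, with 0.0138 to 0.86 over all alternatives). Gbp2 had 34.0 and 55.6 CPM in CD8 KO and 49.8, 59.4 and 45.6 CPM in CD8 WT. Its groups overlapped and the difference did not pass (−0.21 ± 0.20, edgeR adjusted p = 0.966).

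Gbp5 and Gbp4 lay on the other side. Gbp5 had 33.7 and 30.8 CPM in CD8 KO, against 21.4, 25.3 and 23.0 CPM in CD8 WT, and Gbp4 had 29.3 and 36.1 CPM in CD8 KO, against 27.1, 20.4 and 24.4 CPM in CD8 WT. Both genes had KO values above every WT value without passing the test, with log2 fold changes of 0.47 ± 0.24 for Gbp5 (edgeR adjusted p = 0.778) and 0.45 ± 0.23 for Gbp4 (edgeR adjusted p = 0.773). Gbp7 had 19 and 22.5 CPM in CD8 KO and 25.8, 23.9 and 20.1 CPM in CD8 WT. Gbp8 had 40.5 and 44.5 CPM in CD8 KO and 50.3, 37.5 and 35.2 CPM in CD8 WT, and Gbp9 had 73.5 and 87.0 CPM in CD8 KO and 82.5, 78.8 and 69.3 CPM in CD8 WT. These 3 overlapped between genotypes, with log2 fold changes of −0.16 ± 0.29, 0.053 ± 0.20 and 0.063 ± 0.14 in that order. In all, 4 of the 8 members had groups that did not overlap, beside 24.0% of all genes tested. Of these members 2 were higher in KO, beside 12.1% of all genes, and 2 were lower, beside 11.9%. The median log2 fold change was −0.055 over the members and 0.000325 over all genes tested.

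Markers of other cell types were present in the sorted libraries, and at the label CD8 the sums of some were apart between genotypes. No sum was tested. The summed level of 6 B cell markers was 583 to 1600 CPM in CD8 KO and 248 to 666 CPM in CD8 WT, which overlapped. That of 6 red pulp macrophage markers was 341 to 346 CPM in CD8 KO and 208 to 280 CPM in CD8 WT. The 4 monocyte markers summed to 40.4 to 48.7 CPM in CD8 KO and 56.3 to 86.7 CPM in CD8 WT. At the label CD11b the B cell markers summed to 215 to 445 CPM in KO and 224 to 273 CPM in WT, and the red pulp macrophage markers to 161 to 170.0 CPM in KO and 128 to 167 CPM in WT. The monocyte markers summed to 27.9 to 29.5 CPM in CD11b KO and 23.2 to 31.6 CPM in CD11b WT. Every marker of these 3 lists was detected in all 4 groups. Plasmacytoid dendritic cell markers summed to 74.0 to 135 CPM over all groups, and the lists for T cells, NK cells and neutrophils summed to at most 3.67 CPM in any library. Their part in the differences of the guanylate-binding proteins was not tested.

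**Figure D2:**
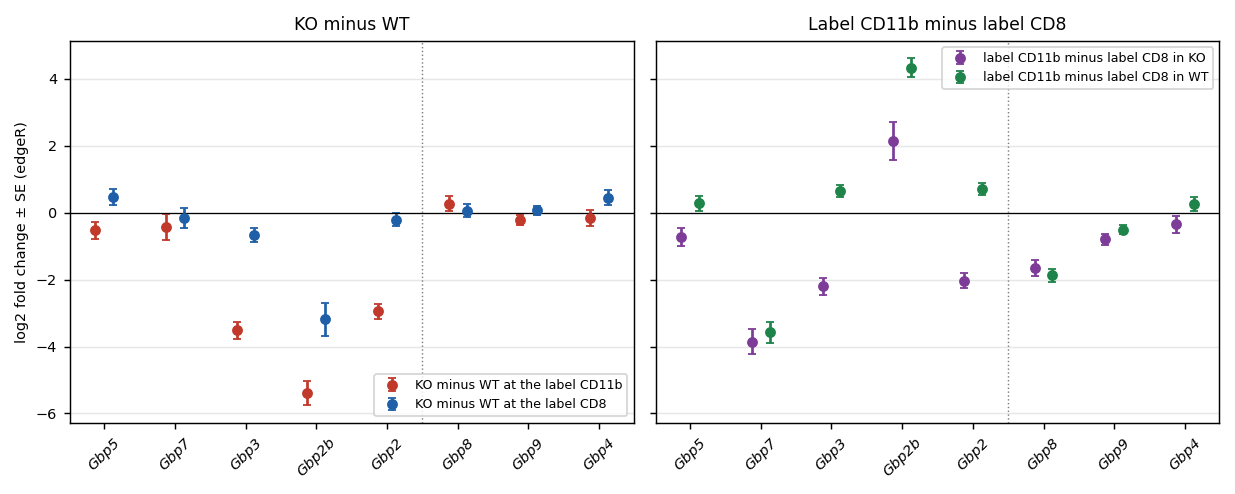
Log2 fold changes of the 8 genes with SE as error bars, for KO minus WT at each subset label and for the label CD11b minus the label CD8 in each genotype; the line at 0 marks no difference. Gbp2b is far below 0 for KO minus WT at both labels (−5.39 and −3.19), and Gbp3 and Gbp2 are far below 0 at the label CD11b (−3.52 and −2.95); the dotted line divides chromosome 3 from chromosome 5 genes.

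Gbp7 and Gbp8 were much lower in libraries labelled CD11b than in those labelled CD8, whatever the genotype. Gbp7 had 1.52, 1.74 and 2.60 CPM in CD11b WT, against 25.8, 23.9 and 20.1 CPM in CD8 WT, 12.0-fold lower (log2 fold change −3.58 ± 0.30, edgeR adjusted p = 1.68e-09). In KO it had 1.72 and 1.17 CPM at the label CD11b, against 19 and 22.5 CPM at the label CD8 (−3.85 ± 0.39, edgeR adjusted p = 4.61e-08). The levels of the labels were apart by a wide gap in both genotypes.

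Gbp8 had 11.3, 10.4 and 11.8 CPM in CD11b WT, against 50.3, 37.5 and 35.2 CPM in CD8 WT (log2 fold change −1.87 ± 0.19, edgeR adjusted p = 3.34e-08). In KO the log2 fold change was −1.66 ± 0.23 (edgeR adjusted p = 5.94e-06). Gbp9 went the same way by a smaller amount, with CD11b WT libraries at 51.0, 59.6 and 51.2 CPM and CD8 WT libraries at 82.5, 78.8 and 69.3 CPM (−0.51 ± 0.13, edgeR adjusted p = 0.00333), and −0.80 ± 0.16 in KO (edgeR adjusted p = 0.000457). Gbp9 lies within the locus of Gbp8 and starts at almost the same base.

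Gbp4 did not pass in either genotype, with log2 fold changes of 0.26 ± 0.21 in WT (edgeR adjusted p = 0.386) and −0.35 ± 0.25 in KO (edgeR adjusted p = 0.374). Gbp5 did not pass either, with 0.28 ± 0.22 in WT (edgeR adjusted p = 0.388) and −0.73 ± 0.27 in KO (edgeR adjusted p = 0.0545). In KO the Gbp5 libraries did not overlap, 19.8 and 19.2 CPM at the label CD11b against 33.7 and 30.8 CPM at the label CD8, and the difference passed under 7 of 19 alternative settings (adjusted p from 0.0166 to 0.212 over all of them). Among these 5 members, 3 were called lower at the label CD11b in WT, beside 15.7% of all genes tested, and the same 3 were called lower in KO, beside 12.5%.

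The CD11b libraries of Gbp2b, Gbp3 and Gbp2 entered the contrast that led to their choice, so their subset differences are given without a p. In WT all 3 had every CD11b library above every CD8 library, as had 19.8% of all genes tested, from which nothing is read. Gbp2b had 105 to 193 CPM in CD11b WT and 4.64 to 11.6 CPM in CD8 WT, 20.1-fold higher (log2 fold change 4.33 ± 0.29), whereas Gbp3 had 0.64 ± 0.18 and Gbp2 had 0.71 ± 0.17 on that scale. In KO the order of Gbp3 and Gbp2 was turned round, with log2 fold changes of −2.20 ± 0.25 and −2.03 ± 0.24, and both genes were below the CD8 libraries in every CD11b library. Gbp2b stayed above, with 5.25 and 2.42 CPM in CD11b KO and 1.24 and 0.435 CPM in CD8 KO.

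Levels of different genes were compared per kilobase of the union of each gene's exons. In CD11b WT the order was Gbp2b, Gbp2, Gbp3, Gbp9, Gbp5, Gbp4, Gbp8 and Gbp7. Gbp2b stood at 55.9 ± 16.6 CPM per kb, Gbp2 at 33.7 ± 5.11 CPM per kb and Gbp7 at 0.348 ± 0.102 CPM per kb (SD, n = 3). Neighbours in that order whose libraries overlapped were Gbp2 with Gbp3, Gbp5 with Gbp4, and Gbp4 with Gbp8. In CD11b KO the order was Gbp9, Gbp2, Gbp8, Gbp4, Gbp5, Gbp3, Gbp2b and Gbp7, led by Gbp9 at 8.94 ± 0.896 CPM per kb (n = 2), and all neighbours from Gbp2 to Gbp3 overlapped.

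In CD8 KO the order was Gbp2, Gbp9, Gbp8, Gbp3, Gbp5, Gbp4, Gbp7 and Gbp2b, and in CD8 WT it was Gbp2, Gbp3, Gbp9, Gbp8, Gbp7, Gbp5, Gbp4 and Gbp2b. Gbp2b, the highest member at the label CD11b in WT, was thus the lowest at the label CD8, at 0.296 ± 0.200 CPM per kb in CD8 KO (n = 2) and 2.74 ± 1.25 CPM per kb in CD8 WT (n = 3). In CD8 WT its libraries overlapped those of Gbp4, the next above it, and in CD8 KO they lay below all other members. Gbp2 stood at 17.8 ± 6.06 CPM per kb in CD8 KO and 20.5 ± 2.81 CPM per kb in CD8 WT, and its libraries overlapped those of the next member in both groups. With the length of the longest coding transcript in place of the exon union, Gbp2b was again first in CD11b WT, where its libraries then overlapped those of the next gene, and last at the label CD8, and Gbp7 was again last at the label CD11b. Other ranks moved, including the first at the label CD8, which was Gbp9 in CD8 KO and Gbp3 in CD8 WT by that length.

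**Figure D3:**
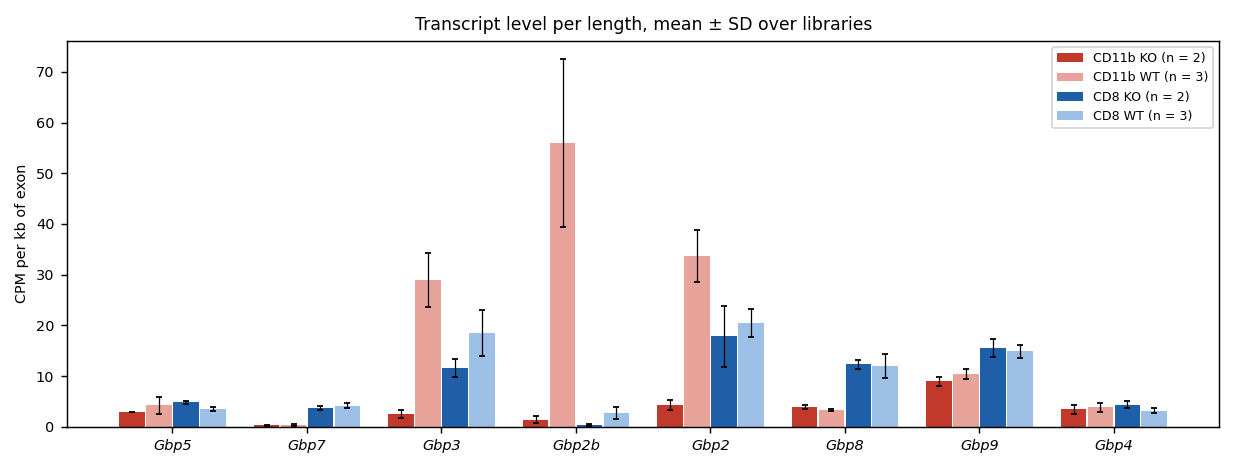
Level of each gene per kilobase of exon (CPM per kb, axis from 0) in the 4 groups; bars are group means and error bars the SD over 2 KO or 3 WT libraries. Gbp2b has the highest level in CD11b WT and the lowest in both CD8 groups, and Gbp7 is the lowest in both CD11b groups.

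The libraries' values rest on reads that mapped to 1 place, and 21.7% to 25.5% of reads mapped to several and were counted to no gene. Of the 75-base stretches in the annotated transcripts of each member, 88.7% (Gbp7) to 99.4% (Gbp5) occurred in no other annotated gene. Gbp2b had 99.1%, Gbp2 99.0% and Gbp3 97.9%, with 24 stretches common to Gbp2 and Gbp2b, so the 3 low genes were distinct in sequence from each other over most of their length. Most of what Gbp7 shared was with Gm43802, a predicted gene whose exons cover 11.3% of those of Gbp7 on the same strand. Of the family members that were not followed, Gbp6 had 32.7% and Gbp10 22.2% of such stretches to themselves. Gbp11 had 89.7%, within the range of the followed members. Gbp6, Gbp10 and Gbp11 had 46, 2 and 18 counts over all libraries and were not tested. Counts of the members without regard to strand were 0.949 (Gbp2) to 1.01 times those of the strand used, and no member's direction changed with them in any of the 4 comparisons. No member's call changed with them in the comparisons other than KO against WT at the label CD11b.

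The tested genes that surround the members were not called for KO against WT, where 0.145% of all genes tested were called at each label. An unadjusted p under 0.05 in edgeR was reached by 6.42% of all genes tested at the label CD11b and 6.52% at the label CD8. Beside these shares, counts of 0 called among so few neighbours are near the background, and nothing is read from them. Within 1 Mb of the chromosome 3 members, 4 other genes were tested, and 0 were called by edgeR at either label, with 0 at an unadjusted p under 0.05 at the label CD11b and 0 at the label CD8. The log2 fold changes of Pdlim5, the nearest gene upstream, were 0.12 at the label CD11b and 0.24 at the label CD8, and those of Kyat3, the nearest downstream, were −0.40 and −0.84 at 2.21 to 4.65 CPM. Around the chromosome 5 members 15 other genes were tested and 0 were called, with 2 at an unadjusted p under 0.05 at the label CD11b and 2 at the label CD8. Abcg3, beside Gbp8, had −0.13 and −0.024, and Lrrc8b, on the other side, had 0.29 and −0.33. The log2 fold changes of the 15 genes lay between −2.77 and 0.35 at the label CD11b and between −1.25 and 3.57 at the label CD8. The lowest at the label CD11b was Pkd2 (−2.77 ± 0.99, edgeR adjusted p = 0.615), at a mean of 0.327 CPM in CD11b KO and 2.28 CPM in CD11b WT, and the highest at the label CD8 was Gm43545 (edgeR adjusted p = 0.472), at 0.877 CPM in CD8 KO and 0.0617 CPM in CD8 WT. Both were named after their values were seen. The counts of called neighbours were 0 in every alternative run as well, DESeq2 and limma-voom included.

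**Figure D4:**
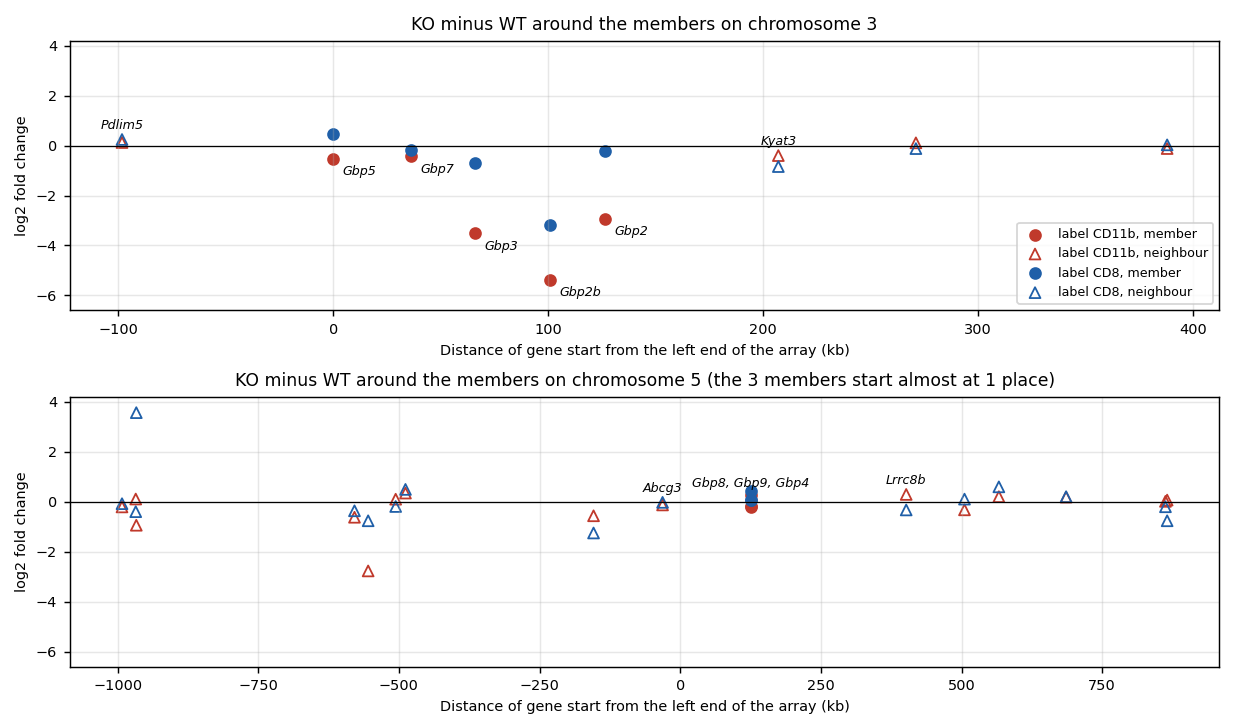
Log2 fold change of KO minus WT at each subset label for the members and the other tested genes within 1 Mb, against the distance of each gene's start from the left end of the group of members in kb (filled circles are members, open triangles neighbours), for chromosome 3 and for chromosome 5. At the label CD11b Gbp3, Gbp2b and Gbp2 lie below the other tested genes on chromosome 3, at the label CD8 Gbp2b does, and the chromosome 5 members lie between −0.22 and 0.45.

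Over the 10 libraries, Gbp3 and Gbp2 were each other's nearest member. The root mean square difference of their centred log2 CPM was 0.334, beside a spread about the mean of 1.29 for Gbp3 and 1.07 for Gbp2. They were compared with 11288 other genes that had a mean of at least 1 CPM, leaving out names that start with Gm, RP or ENSMUSG. Of these, Tstd3 (0.598), Pkd2 (0.692), one of the chromosome 5 neighbours above, and Zfp11 (0.693) were nearest to Gbp3. Tstd3 (0.462), Zfp11 (0.471) and Pkd2 (0.538) were nearest to Gbp2. No gene compared came as near to Gbp3 or Gbp2 as these members did to each other. For Gbp2b, whose spread about its mean was 2.77, the nearest were Cltrn (1.70), Lgalsl (1.82) and 9130015A21Rik (1.84), and the nearest member was Gbp3 (2.28). These distances describe 10 libraries that fall into 4 groups, and they share the libraries in which the genes were found to be low. The nearness of Gbp3 and Gbp2 is thus partly set by their choice.

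Genes of the interferon response were set beside the share over all genes tested for KO against WT, which was 0.145% called at each label, with 6.42% at an unadjusted p under 0.05 at the label CD11b and 6.52% at the label CD8. With so few calls over all genes, a count of 0 in a short list is near the background and says nothing particular about the list. Of 10 tested genes of other interferon-inducible GTPases, 0 were called at the label CD11b and 0 at the label CD8, with 0 at an unadjusted p under 0.05 in each, and with 0 by DESeq2 and 0 by limma-voom. Their median log2 fold change was 0.35 at the label CD11b and 0.32 at the label CD8, beside medians of −0.00732 and 0.000325 over all genes tested.

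Among 17 interferon receptor and signalling genes 0 were called in edgeR at either label, with 2 at an unadjusted p under 0.05 at the label CD11b and 3 at the label CD8. Named after their values were seen, those at the label CD11b were Usp18 (log2 fold change −0.53 ± 0.22) and Stat2 (−0.31 ± 0.14). At the label CD8 they were Ifngr1 (−0.355 ± 0.092), Usp18 (−0.52 ± 0.21) and Socs3 (0.44 ± 0.17). Their part in the differences of the guanylate-binding proteins was not tested. DESeq2 and limma-voom each called 1 of the 17 genes lower at the label CD8 and 0 at the label CD11b. Irf1, a transcription factor that drives guanylate-binding protein genes, was named for its role after its values were seen. It had 116 to 129 CPM in CD11b KO and 106 to 131 CPM in CD11b WT, and these groups overlapped. At the label CD8 its KO values (104 and 119 CPM) lay above all of WT without passing the test (edgeR adjusted p = 0.895).

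The 21 other interferon-stimulated genes tested gave 0 calls in edgeR, DESeq2 and limma-voom at either label, with 0 at an unadjusted p under 0.05 at the label CD11b and 2 at the label CD8. In edgeR 1 was called higher at the label CD8 with no filter on low counts, and 1 without CD8 WT 1. Their median log2 fold change was −0.044 at the label CD11b and 0.058 at the label CD8. The 12 inflammasome genes linked to guanylate-binding proteins had 0 calls by the 3 tools, with 2 at an unadjusted p under 0.05 at each label. Under 1 alternative setting, 1 of them was called higher at the label CD11b. Among 6 genes of the enzymes that attach and process lipid anchors of CaaX proteins 0 were called by any of the 3 tools, with 1 at an unadjusted p under 0.05 at the label CD11b and 0 at the label CD8. Of 13 genes of LC3 conjugation, Atg16l1 was the 1 called at each label, and with limma-voom it was not called at the label CD11b.

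Between the subset labels the same lists differed in many genes, and in both directions, as did 29.5% of all genes tested in WT. Of the 10 other GTPases, Irgm2 (log2 fold change −2.38 ± 0.35), Ifi47 (−1.94 ± 0.40) and Irgm1 (−0.79 ± 0.19) were lower and Mx1 (1.05 ± 0.18) was higher in CD11b WT than in CD8 WT. Of the 21 interferon-stimulated genes, 5 were higher and 12 lower at the label CD11b in WT. Cxcl9, a chemokine induced by interferon-gamma, had 165 to 217 CPM in CD11b WT and 11.2 to 17.1 CPM in CD8 WT (3.87 ± 0.16). Oasl2, Ifit1 and Rsad2, antiviral genes of the type I interferon response, had −4.39 ± 0.27, −4.29 ± 0.36 and −2.89 ± 0.25. Of the 17 receptor and signalling genes, 1 was higher (Tyk2, 0.78 ± 0.10) and 10 were lower, among them Socs3 (−1.79 ± 0.16), Stat3 (−0.62 ± 0.084) and Ifnar2 (−0.88 ± 0.18). Of the 12 inflammasome genes, 1 was higher (Nlrp1b, 1.11 ± 0.13) and 6 were lower, among them Nlrp3 (−1.74 ± 0.10), Il1b (−1.21 ± 0.099) and Nlrc4 (−4.10 ± 0.39). The median log2 fold changes were −0.77 for the other GTPases, −0.36 for the interferon-stimulated genes, −0.33 for the signalling genes and −0.59 for the inflammasome genes, beside 0.00317 over all genes tested. Gbp7, Gbp8 and Gbp9 were higher at the label CD8, as were most called genes of these lists, whereas Gbp2b, Cxcl9 and Mx1 had their higher values at the label CD11b.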

How the data were processed

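Per the labels' protocols, stranded libraries were made from little total RNA of the sorted cells. The build GRCm38 and the aligner STAR 2.5.0a are named per the submitters' processing notes. The files as deposited hold raw read counts per gene, without regard to strand and for each strand; the strand with 16.1 times the counts of the other was used. Annotation release, read length and handling of duplicates are not given in the sources used here. The labels name no molecular identifiers, so counts may carry more than counting error. The 4 lines of reads given to no gene were left out; reads in no feature made up 33.1% to 41.4% of reads, and reads that mapped to several places were not counted.

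Symbols and positions came from GENCODE M21 (53274 of 53379 identifiers matched), and promoter sequences from RefSeq. Genes were filtered with filterByExpr and fitted in edgeR 4.0.16 (R 4.3.3, limma 3.58.1, DESeq2 1.42.0) with TMM scaling, quasi-likelihood tests and 4 group means over all 10 libraries (common dispersion 0.0862). P-values were adjusted over 14528 genes, and the SE of a log2 fold change is its size divided by the root of F. The procedure was tested on simulated data. Comparisons were KO against WT within each label and, in each genotype, between the labels (CD11b over CD8). The p-values measure the spread between the libraries within groups. Whether same-numbered libraries of both labels share a mouse was not established, and the main fit treats them as separate.

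The members and lists were chosen with earlier results of these data known. Named genes were the 8 members, markers for the label checks, up to 4 called genes of a list with the smallest p, the 3 nearest genes in pattern to Gbp2b, Gbp3 and Gbp2, and the nearest tested neighbours. Lists got counts and medians and no test as a set. Alternatives were RLE size factors, no filter, unstranded counts, DESeq2, a filter asking for 1 CPM in 2 libraries, limma-voom with quality weights, fits of only the libraries compared, a replicate block and each library left out. A fit lacking CD11b WT 1 and CD8 KO 2 together, list counts under the alternatives and a second gene length were added after the data were seen. Protein sequences were not used here.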

Additional observations from a re-analysis of the deposited data

Results flagged for a closer look

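For 3 members the libraries moved opposite ways in the groups set side by side, and the difference between those groups was not tested. The difference of the label CD11b minus the label CD8 in Gbp2 was 2.74 lower in KO than in WT on the log2 scale (−2.74). Every CD11b KO library (9.08 and 12.7 CPM) was below both CD8 KO libraries (34.0 and 55.6 CPM), whereas every CD11b WT library (69.9 to 92.8 CPM) was above every CD8 WT library (45.6 to 59.4 CPM). Gbp3 had the same pattern, with a difference of −2.84, from 6.36 and 9.92 CPM in CD11b KO and 33.8 and 41.7 CPM in CD8 KO, beside 74.5 to 108 CPM in CD11b WT and 43.7 to 72.6 CPM in CD8 WT. Both genes were chosen through their CD11b values. For Gbp5 the KO minus WT difference at the label CD11b minus that at the label CD8 was −1.0 on the log2 scale, from 19.2 and 19.8 CPM in CD11b KO and 20.4 to 40.7 CPM in CD11b WT, beside 30.8 and 33.7 CPM in CD8 KO and 21.4 to 25.3 CPM in CD8 WT. With libraries left out, the log2 fold change of Gbp5 lay between −0.72 and −0.17 at the label CD11b and between 0.41 and 0.54 at the label CD8. CD11b WT 2 had 40.7 CPM of Gbp5, above the 23.4 and 20.4 CPM of the other CD11b WT libraries. Groups of 2 or 3 libraries were too small for a test of outlying libraries.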

How the results depend on the processing

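Among the values of members under alternative settings, 579 counted as unchanged and 11 changed sign. A further 8 gained and 7 lost the call, and 3 moved by more than the spread between libraries. In the contrast that led to the choice of the genes, unchanged meant the same direction and a shift within that spread. The side of the threshold was not compared there, and the 3 moves are from it. In the other comparisons unchanged meant the same direction and the same side of the threshold. All gained and lost calls are from these other comparisons. For KO against WT at the label CD8, 21 genes were called (9 higher, 12 lower); the count was 142 with no filter on low counts (84 higher, 58 lower), 59 with DESeq2 (34 higher, 25 lower), 63 with limma-voom with quality weights, 78 with only the libraries compared, and 7 (without CD8 KO 2) to 53 (without CD8 KO 1) when 1 library was left out. It was 32 without CD11b WT 1. At the label CD11b, 21 genes were called; the count was 71 with no filter (37 higher, 34 lower), 42 with DESeq2, 13 without both CD11b WT 1 and CD8 KO 2, and 14 to 29 with 1 library left out, 14 being without CD11b WT 1. With 1 of 2 KO libraries left out, the other is assumed to vary like the remaining groups.

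Values that changed sign were all small. With 1 library left out, the log2 fold change of KO minus WT at the label CD8 was −0.045 to 0.23 for Gbp8, −0.058 to 0.18 for Gbp9 and −0.60 to 0.11 for Gbp2. Gbp5 between the labels in WT had −0.087 (without CD11b WT 2) to 0.46, and Gbp4 at the label CD11b had −0.46 to 0.085. Without both CD11b WT 1 and CD8 KO 2, Gbp8 had −0.011 and Gbp9 −0.058 at the label CD8. In each case the cause was not tested.

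The replicate numbers were not used as pairs in the main fit, because the correlation of deviations was −0.0373 to 0.0594 over same-numbered libraries, below 0.1. Between the labels these values were 0.0182 to 0.0491 in WT and 0.0409 in KO. Deviations from means of 2 or 3 libraries cannot exclude that both labels share mice. Between the labels in WT each library still correlated best with its own number, which is a hint from the data only. With the replicate block, 26 genes were called for KO against WT at the label CD8, 29 at the label CD11b, 4462 between the labels in WT and 3564 in KO, and the call of Gbp5 between the labels in KO was gained (edgeR adjusted p = 0.0201). The 5 and 15 counts of Gbp2b in CD8 KO limit the precision of its fold change.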

Other observations

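Genes of LC3 conjugation also differed between the subset labels. Of 13 tested, 3 were higher and 2 lower in CD11b WT than in CD8 WT, with a median log2 fold change of 0.051 beside 0.00317 over all genes tested, where 29.5% were called. Gabarap, an LC3 relative, had 148 to 181 CPM in CD11b WT and 91.3 to 97.8 CPM in CD8 WT (log2 fold change 0.80 ± 0.11, edgeR adjusted p = 2.72e-06). Atg3, the enzyme that attaches LC3 to lipid, had 0.66 ± 0.11 and Atg16l2, a relative of Atg16l1, had 0.84 ± 0.17, while Gabarapl1 had −0.57 ± 0.15. Among the 6 genes of CaaX protein processing 0 were called between the labels in WT by edgeR, with 1 at an unadjusted p under 0.05, and at most 1 was called under any alternative.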
